A study of Homo sapiens with 2 samples.

Results

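The genes examined were 35 that encode the enzymes and transporters of glycolysis, of lactate and pyruvate handling and of the pentose phosphate pathway. They were chosen by symbol from a list of these pathways, and all 35 were found among 55773 annotated gene symbols in both tables. Their levels were read in a pair of RNA-seq libraries from an established human lung adenocarcinoma cell line, NCI-H2030. The AS library came from cells treated with miR-494-3p AS, and the SC library from cells treated with SC; neither abbreviation is spelled out in the labels, and no dose or duration is given there. With 1 library per treatment there were no replicates, so no test or error could be computed and each difference below is one between these 2 libraries.

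Glycolysis splits glucose into pyruvate in the cytosol. Pyruvate is then reduced to lactate and exported, or enters mitochondria, where the pyruvate dehydrogenase complex turns it into acetyl-CoA. The pentose phosphate pathway branches from the first glycolytic sugar phosphate, and yields NADPH in its oxidative arm and ribose for nucleotides in its non-oxidative arm. Many tumours, lung adenocarcinoma among them, take up much glucose and release lactate even when oxygen is present, and several of these genes are known targets of the hypoxia-inducible factors (HIF).

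The treatment names the microRNA miR-494-3p, whose mature sequence is shown because its seed, bases 2 to 8 in capitals, sets which messages it could pair with. A seed match here is one of 3 letter strings read on the transcript strand, the 7-base ATGTTTC, the 7-base TGTTTCA, or the 8-base ATGTTTCA that contains both. Of the 35 genes, 5 had a match in their longest annotated 3' UTR. Below the microRNA stands the first match in 4 of them, in capitals within 10 bases on either side, with the position counted from the first base of the UTR.
hsa-miR-494-3p: uGAAACAUacacgggaaaccuc
SLC16A1, bases 557 to 563: tttctggcatATGTTTCtgctagctat
PDK1, bases 6739 to 6745: gaaacatcttATGTTTCtgtgtttggg
PDHA1, bases 676 to 682: accccttgttTGTTTCAccattccagc
PGAM1, bases 749 to 755: cttcctgcctTGTTTCAtggcagtgaa
The microRNA sequence is RefSeq's (GRCh38.p14, chr14:101029681-101029702, plus strand), and the UTR sequences are those of GENCODE release 29. PDK1 held 2 matches of the 7-base strings, SLC16A1, PDHA1 and PGAM1 held 1 each, and the gene not shown held more than any of these. Thus 14.3% of the 35 genes held a match, against 27.7% of the measured coding genes with an annotated 3' UTR. The 5 genes did not share a direction: the log2 ratio of TPM, AS over SC, was above 0 in the 4 shown and below 0 in the gene not shown, which had the most matches. The median of all 5 was 0.51, and that of the 30 genes with no match was -0.41; over all coding genes these medians were 0.63 with a match and 0.19 without. The 5 genes had a median GC content of 43.5% and the other 30 one of 56.1%, and what the GC content contributed was not tested.

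Levels are given in TPM (a level normalised for transcript length and for the library's total), and changes as log2((AS + 1)/(SC + 1)) of TPM, which understates the ratio of genes near 1 TPM. A gene was counted as measured at a mean of at least 1 TPM, and as 2-fold different at a log2 ratio of 1 or more, or of -1 or less. Depth was similar: 1 FPKM stood for a coverage of 3.54 in AS and 3.62 in SC, a ratio that scales with the aligned bases. Measured genes had a median coverage of 10.7 in AS and 8.69 in SC. Most genes were higher in AS, with a median log2 ratio of 0.28 over the 13669 measured genes, so ratios are also read against 0.28. Of the defining markers of the cell type, KRT8, KRT18 and KRT7 were at 345, 479 and 55.2 TPM in AS and at 486, 558 and 67.9 TPM in SC. KRT19 and SFTPC were listed at 0 in both, and CDH1, NKX2-1 and SFTPB were under 0.1 TPM in both, so these markers of epithelium and of lung lineage were at or near 0. In all, 5 of 10 epithelial and lung markers reached 1 TPM in AS and 4 in SC, with sums of 883 TPM in AS and 1114 TPM in SC. PTPRC and CD3E of leukocytes were listed at 0, while CD68, a lysosomal protein, was at 203 TPM in AS and 285 TPM in SC. The endothelial markers VWF and CDH5 summed to 0.0511 TPM in AS and 0.149 TPM in SC, and PECAM1 had no value in either library. Of 4 fibroblast markers COL1A1 alone reached 1 TPM, at 15.8 TPM in AS and 26.3 TPM in SC.

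All 35 genes were measured. They held 24851 TPM in AS and 31471 TPM in SC, which is 2.56% and 3.23% of the TPM of annotated genes in AS and SC. Of this sum, GAPDH, ENO1, PKM, LDHA and TPI1 together made up 73.8% in AS and 76.0% in SC. GAPDH had rank 10 among the measured genes in AS and rank 8 in SC, and at the other end PFKFB2 was at 2.0 TPM in AS and 0.606 TPM in SC. In these bulk libraries, fewer cells in a given state and less RNA per cell cannot be told apart.

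**Figure D1:**
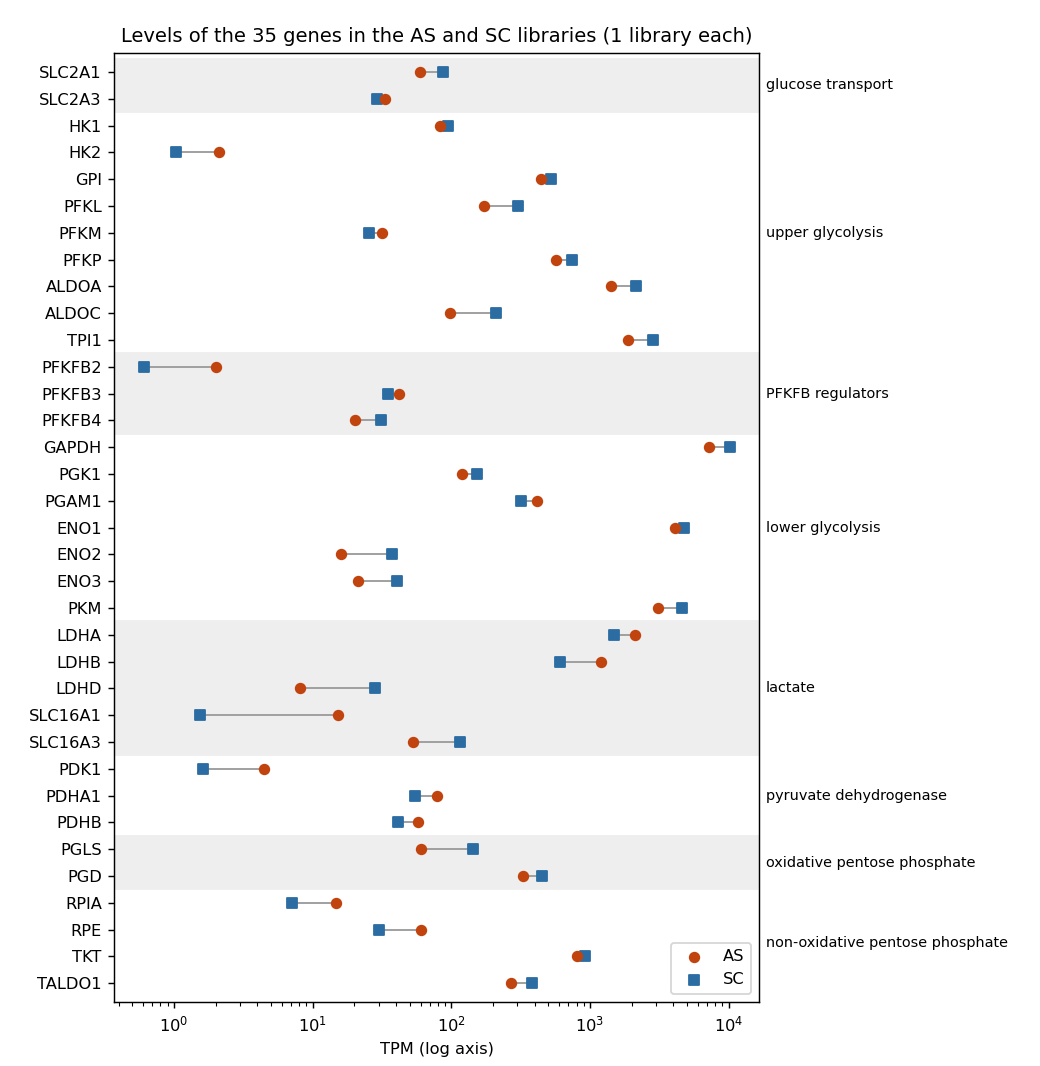
TPM of the 35 genes on a log axis, with circles for the AS library and squares for the SC library, grouped by role. The levels run from 0.606 TPM (PFKFB2 in SC) to 10202 TPM (GAPDH in SC); SLC16A1 has the widest gap between the libraries.

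Most of the glycolytic enzymes were lower in AS, the lactate dehydrogenases LDHA and LDHB and the pyruvate dehydrogenase subunits were higher, and the 2 lactate transporters lay on opposite sides. Among the 35 genes, AS was at least 2-fold higher for 2 (SLC16A1 and PDK1; 5.71%, against 16.5% of all measured genes). At least 2-fold lower in AS were 5 (LDHD, PGLS, ENO2, SLC16A3 and ALDOC; 14.3%, against 2.17% of all measured genes). After centring on the median of all measured genes the split was 1 higher and 7 lower, against 9.17% higher and 5.09% lower of all measured genes, with ENO3 and PFKL added to the lower ones and PDK1 no longer 2-fold higher. The median log2 ratio was -0.23, and 23 of 35 genes were below the median of all measured genes. Just short of 2-fold were LDHB and RPE, both at 0.97, RPIA at 0.96 and ENO3 at -0.93.

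The same 5 genes were at least 2-fold lower in 2 further measures of the same 2 libraries. The 3 measures are therefore not independent of each other. The first was the deposited coverage, scaled for the depth of each library and used only as a ratio within a gene, except in the PFKFB sums below. The second was the TPM of the assembled locus, a locus put together from the reads of 1 library, that overlapped the gene most on its strand. For some genes, such as LDHA, the locus TPM equalled the gene TPM in both libraries. In coverage 3 genes were 2-fold higher (SLC16A1, RPIA and RPE, against 20.2% of all measured genes) and 5 lower (against 2.09%). In the assembled loci 1 was higher (SLC16A1, against 16.7%) and 5 were lower (against 3.40%). The sign was the same in the 3 measures for 34 genes, the exception being HK2, and TPM and coverage ratios differed by at most 0.25 in 30 genes. The other 5 were HK2, PFKFB2, ENO3, SLC16A1 and PDK1.

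**Figure D2:**
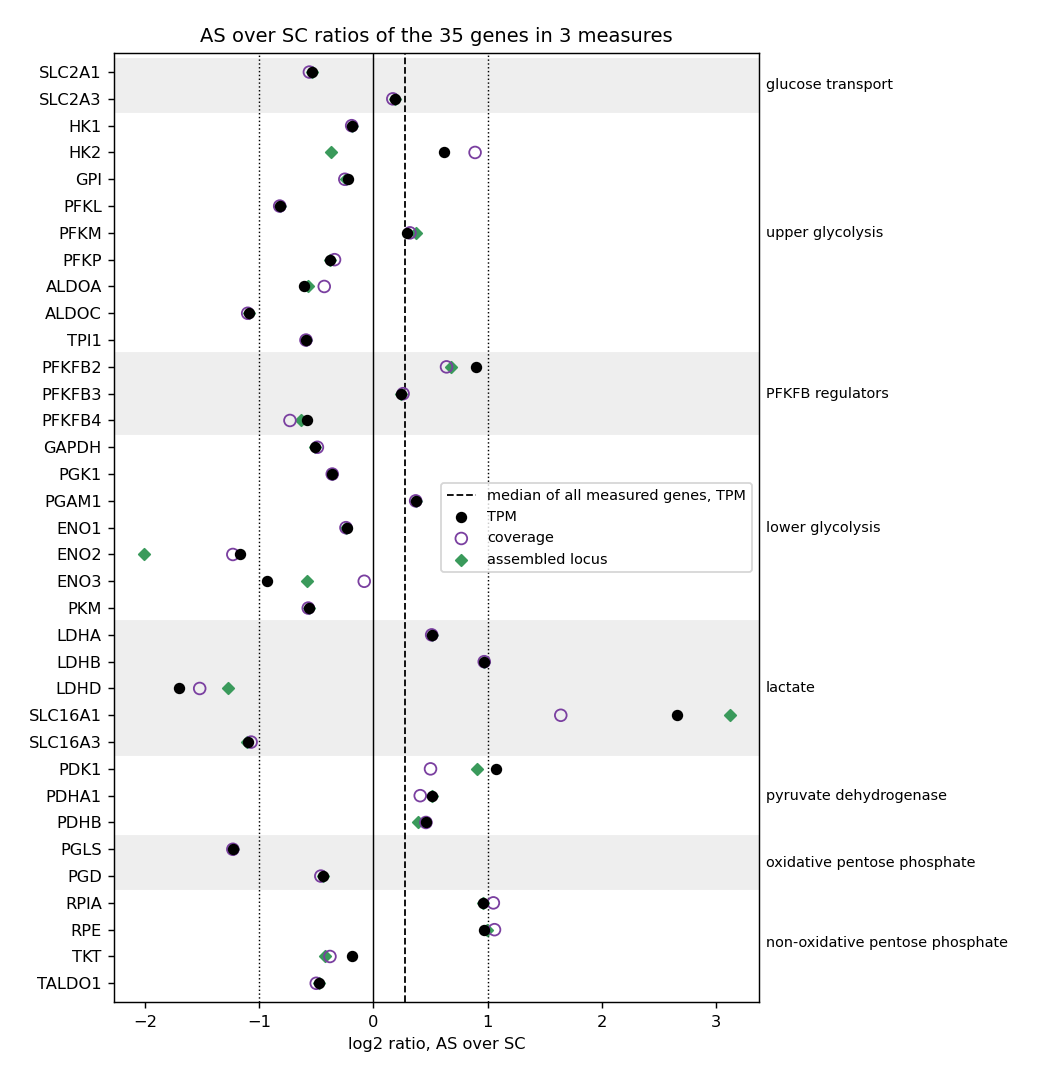
log2 ratio, AS over SC, of each gene in TPM (filled circles), coverage (open circles) and the assembled locus (diamonds), with dotted lines at -1 and 1 and a dashed line at 0.28, the median of all measured genes in TPM. The glycolytic enzymes lie mostly left of 0, and SLC16A1 lies farthest right at 2.66 in TPM and 1.64 in coverage.

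Glucose enters by facilitative transporters and is trapped by hexokinase. SLC2A1, the widely expressed glucose transporter GLUT1, was at 59.9 TPM in AS and 87.4 TPM in SC, a log2 ratio of -0.54. SLC2A3, the high-affinity transporter GLUT3, was at 33.1 TPM in AS and 29 TPM in SC, a ratio of 0.19 that lay 0.10 below the median of all genes and so turned negative after centring. SLC2A3 therefore made up 35.6% of the summed TPM of both transporters in AS and 24.9% in SC. Reads of SLC2A3 can be shared with its near-identical copy SLC2A14, although that gene and the SLC2A3 pseudogenes together held only 0.293 TPM in AS and 0.246 TPM in SC. HK1, the housekeeping hexokinase, was at 83.1 TPM in AS and 95.1 TPM in SC (-0.19). It was 97.5% of the summed TPM of HK1 and HK2 in AS and 98.9% in SC. This sum leaves out HKDC1, another gene of this step, at 24.1 TPM in AS and 19.5 TPM in SC (0.29). HKDC1 was more abundant than HK2 in both libraries, so these shares do not give the part of HK1 in all hexokinase messages. HK2, the inducible hexokinase of many tumours, was near the lower limit at 2.12 TPM in AS and 1.04 TPM in SC, and its sign differed between measures, with log2 ratios of 0.62 (TPM), 0.89 (coverage) and -0.37 (assembled locus).

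The next enzymes carry the sugar phosphates to the trioses. GPI, the isomerase of glucose 6-phosphate, was at 445 TPM in AS and 520.3 TPM in SC (-0.22). Phosphofructokinase commits the sugar to glycolysis and has 3 isoenzymes. PFKP, the platelet form, was the most abundant at 570.0 TPM in AS and 739.8 TPM in SC (-0.38), and PFKL, the liver form, was at 172 TPM in AS and 304 TPM in SC (-0.82). PFKM, the muscle form, was the exception at 31.4 TPM in AS and 25.5 TPM in SC (0.29), a ratio that was 0.01 after centring. The log2 ratios of PFKL and PFKM thus differed by -1.11 in TPM and -1.14 in coverage. ALDOA, the main aldolase, was at 1409.7 TPM in AS and 2155 TPM in SC (-0.61), and TPI1, the triose phosphate isomerase, at 1891 TPM in AS and 2844 TPM in SC (-0.59). Pseudogenes of TPI1 added 80.2 TPM in AS and 124 TPM in SC, so a part of its reads may have been divided among copies.

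ALDOC, the brain-type aldolase (ENSG00000109107, chromosome 17, 26900133 to 26904282, minus strand, GRCh37), was at 98.5 TPM in AS and 211 TPM in SC. Its log2 ratios of TPM, coverage and locus TPM were -1.09, -1.10 and -1.09, so the measures hardly differed. The ratio of ALDOA exceeded that of ALDOC by 0.48, and ALDOC made up 6.53% of the aldolase sum in AS and 8.91% in SC.

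The bifunctional PFKFB enzymes make and break fructose 2,6-bisphosphate, the activator of phosphofructokinase. PFKFB3, the form with the highest ratio of kinase to phosphatase activity, was at 41.7 TPM in AS and 35.2 TPM in SC, a log2 ratio of 0.24 that turned negative after centring. PFKFB4 was at 20.3 TPM in AS and 30.9 TPM in SC (-0.58). PFKFB2, the heart form, was at 2.0 TPM in AS and 0.606 TPM in SC (0.90 in TPM, 0.64 in coverage), a level at which its assembled locus was listed at 0 in SC. The sum of the 3 was 64.0 TPM in AS and 66.7 TPM in SC, and PFKFB3 accounted for 65.2% of it in AS and 52.7% in SC. In coverage PFKFB4 held 62.8% of the sum in AS and 78.3% in SC. However, coverage per FPKM was 0.216 in AS and 0.219 in SC for PFKFB3, and 1.04 and 1.16 for PFKFB4. Shares of summed coverage therefore do not compare the levels of these genes. The log2 ratio of the sums was -0.06 in TPM, -0.10 in assembled loci and -0.38 in coverage, where the genes are weighted unequally.

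The later steps, from GAPDH to pyruvate kinase, contain the pathway's most abundant messages, and 6 of these 7 genes were lower in AS. GAPDH, which oxidises glyceraldehyde 3-phosphate, was at 7161 TPM in AS and 10202 TPM in SC (-0.51), beside 34.2 TPM in AS and 44.1 TPM in SC over its 58 listed copies. PGK1, the first ATP-forming enzyme, was at 120.2 TPM in AS and 154 TPM in SC (-0.36). PGAM1, the mutase of phosphoglycerate, was the exception, at 414 TPM in AS and 319.6 TPM in SC (0.37), which is 0.09 above the median of all genes. Its 14 listed near copies held 4.45 TPM in AS and 2.79 TPM in SC. PKM, the pyruvate kinase, was at 3103 TPM in AS and 4587 TPM in SC (-0.56), with its 2 splice forms not separated in these tables.

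Enolase, which makes phosphoenolpyruvate, was the only step of this stretch with several isoenzymes among the 35 genes. ENO1, the ubiquitous form, was at 4076 TPM in AS and 4785 TPM in SC (-0.23). ENO2, the neuronal form (ENSG00000111674, chromosome 12, 7022909 to 7032861, plus strand, GRCh37), was at 16.1 TPM in AS and 37.4 TPM in SC, with log2 ratios of -1.17 (TPM), -1.23 (coverage) and -2.01 (assembled locus). ENO3, the muscle form, was at 21.1 TPM in AS and 40.9 TPM in SC (-0.93), but its coverage was 21.7 in AS and 25.1 in SC (-0.08). ENO2 was thus at least 2-fold lower in AS in each measure, while the size of the ENO3 ratio depended on the measure (-0.58 in the assembled locus). Because ENO1 was 253 times as abundant as ENO2 in AS and 128 times in SC, the enolase sum followed ENO1, with a log2 ratio of -0.24.

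In all, 13 of the 16 glycolytic enzymes from hexokinase to pyruvate kinase were lower in AS, and the same 13 lay below the median of all measured genes. The median log2 ratio of the 16 was -0.44 in TPM and -0.35 in coverage, against 0.28 and 0.34 for all measured genes. Their summed level was 19615 TPM in AS and 27022 TPM in SC, a log2 ratio of -0.46.

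**Figure D3:**
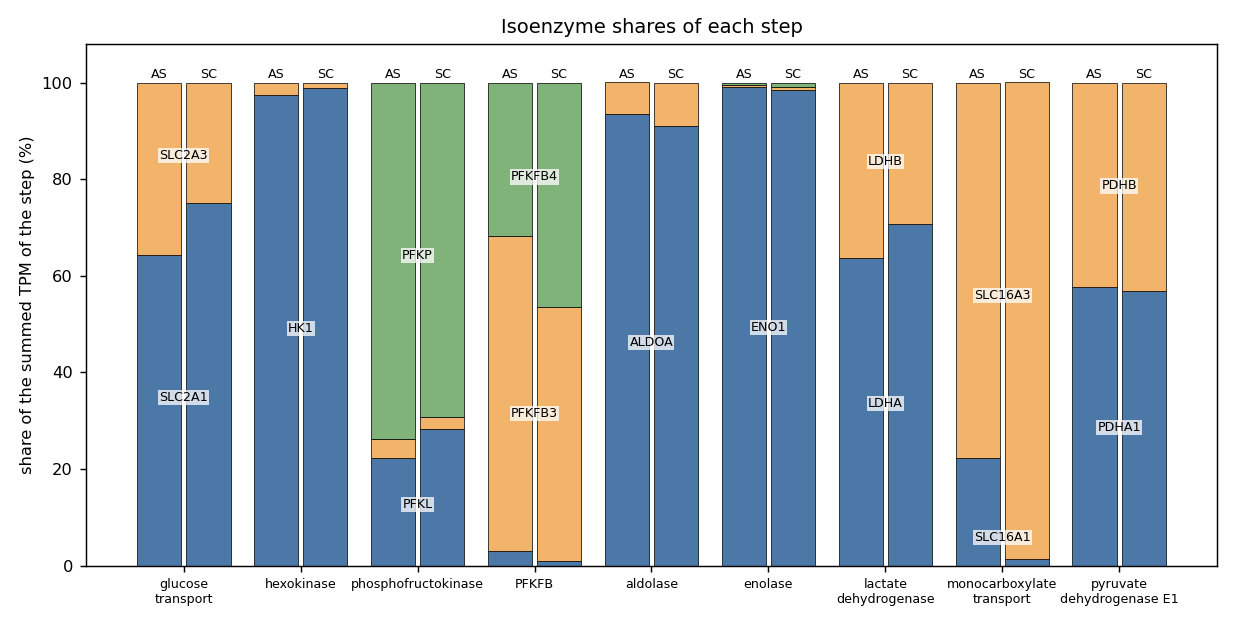
Share of each isoenzyme in the summed TPM of its step, in percent, with the AS bar left of the SC bar for each of 9 steps. The monocarboxylate transporters differ most, with SLC16A1 at 22.2% of the sum in AS and 1.33% in SC. HK1, ALDOA and ENO1 hold over 90% of the sums of their steps in both libraries. Each sum holds only genes among the 35, so HKDC1, at 24.1 TPM in AS and 19.5 TPM in SC, is left out of the hexokinase sum.

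Lactate dehydrogenase went the other way from the enzymes above it. It interconverts pyruvate and lactate as a tetramer of LDHA and LDHB chains; LDHA-rich forms favour lactate production and LDHB-rich forms its oxidation. LDHA was at 2116 TPM in AS and 1486 TPM in SC (0.51 by each measure). LDHB was at 1204 TPM in AS and 612 TPM in SC (0.97 by each measure). The sum of both was 3319.8 TPM in AS and 2099 TPM in SC (0.66), and LDHB made up 36.3% of it in AS and 29.2% in SC. Pseudogenes of LDHA held 24.6 TPM in AS and 11.7 TPM in SC, and those of LDHB under 1 TPM in both. LDHD, the mitochondrial enzyme of D-lactate (ENSG00000166816, chromosome 16, 75145758 to 75150669, minus strand, GRCh37), was at 8.08 TPM in AS and 28.4 TPM in SC, with log2 ratios of -1.70 (TPM), -1.52 (coverage) and -1.27 (assembled locus). It had the lowest ratio of the 35 genes in TPM.

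Lactate leaves and enters cells through the monocarboxylate transporters MCT4 and MCT1. SLC16A3, which encodes MCT4, the exporter of glycolytic cells and a known HIF target (ENSG00000141526, chromosome 17, 80186273 to 80219005, plus strand, GRCh37), was at 53.2 TPM in AS and 115 TPM in SC (-1.10). SLC16A1, which encodes MCT1, the high-affinity carrier used for both uptake and release (ENSG00000155380, chromosome 1, 113454469 to 113499635, minus strand, GRCh37), was at 15.2 TPM in AS and 1.55 TPM in SC, a log2 ratio of 2.66. Its coverage was 3.89 in AS and 1.31 in SC, a smaller ratio of 1.64, and its assembled locus was at 15.2 TPM in AS and 0.857 TPM in SC (3.12). Thus SLC16A1 was higher in AS in every measure, while the size of its ratio depended on the measure. SLC16A3 remained the more abundant of the pair in both libraries, at 77.8% of their summed TPM in AS and 98.7% in SC. The sum was 68.4 TPM in AS and 117 TPM in SC (-0.77; -1.05 after centring). BSG, which encodes the partner protein basigin that carries both transporters to the membrane, was at 857 TPM in AS and 841 TPM in SC (0.03).

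Pyruvate dehydrogenase, the gate from glycolysis into the mitochondrion, is switched off by the PDK kinases and switched on by the PDP phosphatases. PDHA1 and PDHB encode the chains of its first component. PDHA1 was at 78.3 TPM in AS and 54.8 TPM in SC (0.51), and PDHB at 57.7 TPM in AS and 41.6 TPM in SC (0.46). PDK1, a kinase induced by HIF, was at 4.48 TPM in AS and 1.61 TPM in SC (TPM 1.07, coverage 0.50, assembled locus 0.91). It thus passed 2-fold in TPM but not in the other 2 measures, nor after centring (0.79).

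The rest of the complex was read from a list of 58 other genes of these pathways, of which 57 matched a symbol and 32 were measured. Of these 32, 9 were past 2-fold on the side of AS (28.1%, against 16.5% of all measured genes) and 1 on the side of SC (3.12%, against 2.17%), with a median log2 ratio of 0.40, which is 0.12 above that of all measured genes. The genes of the complex and its regulators were grouped after their values were seen. With the 3 genes above they are 12 genes, of which 11 were higher in AS, as were 9049 of all 13669 measured genes. By TPM 6 of the 12 were at least 2-fold higher (against 16.5% of all measured genes), by coverage 5 (against 20.2%) and by assembled locus 3 (against 16.7%), and PDK2 was lower at 10.5 TPM in AS and 14.0 TPM in SC (-0.38). DLD, the dihydrolipoamide dehydrogenase, was at 34.0 TPM in AS and 9.63 TPM in SC (1.72), and DLAT, the acetyltransferase, at 17.3 TPM in AS and 8.48 TPM in SC (0.95). PDP1, the calcium-activated phosphatase, was at 7.34 TPM in AS and 1.09 TPM in SC (TPM 2.0, coverage 1.49, assembled locus 0.66), and PDPR, the regulatory chain of the phosphatase, at 12.6 TPM in AS and 3.21 TPM in SC (1.70). PDP2, the other phosphatase, was at 7.43 TPM in AS and 2.99 TPM in SC (TPM 1.08, coverage 0.84, assembled locus 0.73), and PDK4, a kinase raised in fasting, at 4.86 TPM in AS and 1.12 TPM in SC (1.47). The phosphatases and the kinases, which act against each other, were thus both higher in AS, except PDK2. PDHX, which binds the third component into the complex, and the kinase PDK3 had log2 ratios of 0.98 and 0.40. In coverage and in assembled loci PDK3 was at 0.20 and 0.16, below the medians of all measured genes (0.34 and 0.25). PDK2 was also below these medians, and the other 10 of the 12 genes were above them. The 12 genes had median log2 ratios of 1.03 (TPM), 0.79 (coverage) and 0.71 (assembled loci), and a median GC content of 43.8%; 4 of them were below the median TPM ratio of coding genes of like GC content and 6 below that of coverage, and the part of GC content was not tested.

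**Figure D4:**
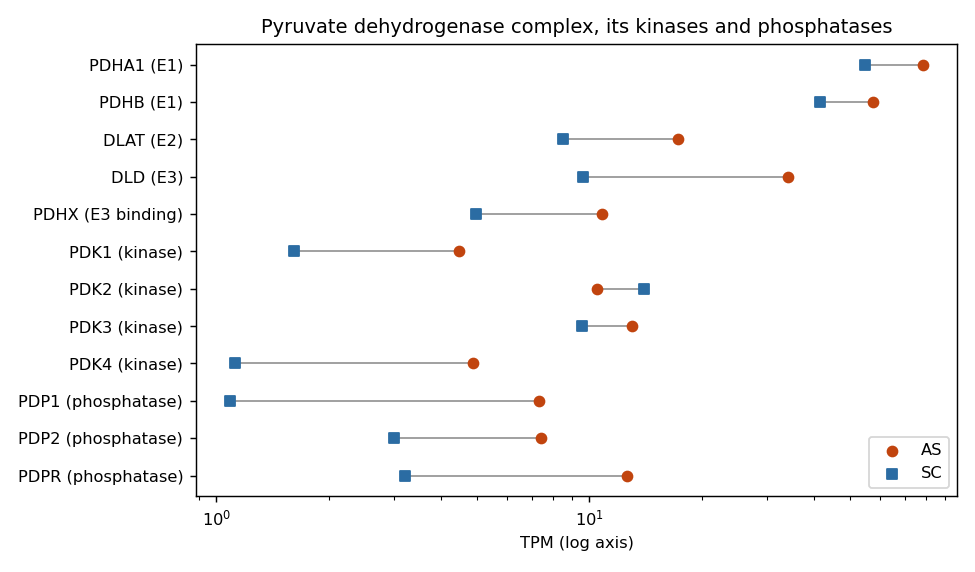
TPM, on a log axis, of the 12 genes of the pyruvate dehydrogenase complex, its kinases and its phosphatases, with circles for AS and squares for SC. PDK2 is the gene that is lower in AS; PDP1 has the widest gap, at 7.34 TPM in AS and 1.09 TPM in SC.

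Other genes of the list that were 2-fold different or abundant had these values. HIF1A, the oxygen-regulated subunit of HIF-1, was at 11.4 TPM in AS and 0.651 TPM in SC, with log2 ratios of 2.91 (TPM), 1.30 (coverage) and 1.03 (assembled locus). TXNIP, which restrains glucose uptake, was at 7.88 TPM in AS and 2.21 TPM in SC (1.47), and BPGM, the enzyme of 2,3-bisphosphoglycerate, at 23.3 TPM in AS and 11.1 TPM in SC (1.00). PRPS2, which makes the activated ribose for nucleotide synthesis, was at 19.7 TPM in AS and 7.77 TPM in SC (1.24), and its relative PRPS1 at 103 TPM in AS and 55.9 TPM in SC (0.87). SLC2A6, a member of the glucose transporter family, was the gene 2-fold lower, at 14.3 TPM in AS and 30 TPM in SC (-1.02). G6PC3, a glucose 6-phosphatase, was at 124 TPM in AS and 168 TPM in SC (-0.43), and PCK2, the mitochondrial carboxykinase, at 40.4 TPM in AS and 58.4 TPM in SC (-0.52). PGM1, the phosphoglucomutase, and SLC2A8, an intracellular glucose transporter, had log2 ratios of 0.39 and 0.03.

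The pentose phosphate genes differed in direction between enzymes. PGLS, the lactonase of the oxidative arm (ENSG00000130313, chromosome 19, 17622438 to 17632097, plus strand, GRCh37), was at 60.4 TPM in AS and 143 TPM in SC, with a log2 ratio of -1.23 in all 3 measures. PGD, which releases NADPH and ribulose 5-phosphate, was at 331 TPM in AS and 449 TPM in SC (-0.44). In the non-oxidative arm the 2 enzymes that act on ribulose 5-phosphate were higher. RPIA, which makes ribose 5-phosphate, was at 14.7 TPM in AS and 7.06 TPM in SC (0.96 in TPM, 1.05 in coverage). RPE, the epimerase, was at 60.2 TPM in AS and 30.3 TPM in SC (0.97 in TPM, 1.06 in coverage). The 2 enzymes that shuttle carbons back to glycolysis were lower, with TKT, the transketolase, at 804 TPM in AS and 917 TPM in SC (-0.19 in TPM, -0.38 in coverage) and TALDO1, the transaldolase, at 271 TPM in AS and 379 TPM in SC (-0.48). TKT and TALDO1 were far more abundant than RPIA and RPE, and the 4 non-oxidative genes summed to 1150.0 TPM in AS and 1333 TPM in SC.

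The AS over SC ratio of the 35 genes followed the GC content of their longest coding transcript, as it did across the transcriptome. Spearman's rho over the 35 genes was -0.82 in TPM and -0.79 in coverage, and over the 10651 measured coding genes it was -0.64 and -0.70; genes share both libraries and are not independent, so these are descriptions. RPE (36.6% GC), PDK1 (39.8%), SLC16A1 (43.5%), LDHA (44.0%) and LDHB (46.5%) stood at the low end and were higher in AS. LDHD (63.1%), SLC16A3 (62.7%), PFKL (63.5%) and PGLS (66.0%) stood at the high end and were lower. PGK1 departed from this order, with a GC content of 43.3% and a ratio of -0.36, where coding genes of like GC content had a median ratio of 0.77.

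The measured coding genes were split into 10 bins of equal size by GC content. Set against the median of their own bin, 25 of the 35 genes were lower in TPM and 27 in coverage, with median differences of -0.44 and -0.42. Among the 16 glycolytic enzymes 13 were lower in both. The differences were -1.41 for LDHD, -1.21 for ENO2, -1.14 for ALDOC, -1.13 for PGK1, -0.94 for PGLS and -0.91 for SLC16A3. For LDHB and RPIA they were 0.32 and 0.52, whereas for LDHA, PDHA1 and PDHB they were -0.26, -0.15 and -0.31. RPE was within 0.08 of its bin. SLC16A1 lay 1.89 above its bin in TPM and 0.77 in coverage, and PDK1 had differences of 0.18 in TPM and -0.48 in coverage. Of all coding genes, 4.69% were at least 2-fold lower in AS in the bin of LDHD and PGLS (62.9% to 74.2% GC), and 2.16% in that of ALDOC and ENO2 (53.8% to 56.8% GC). What GC content contributed to the ratios was not tested.

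**Figure D5:**
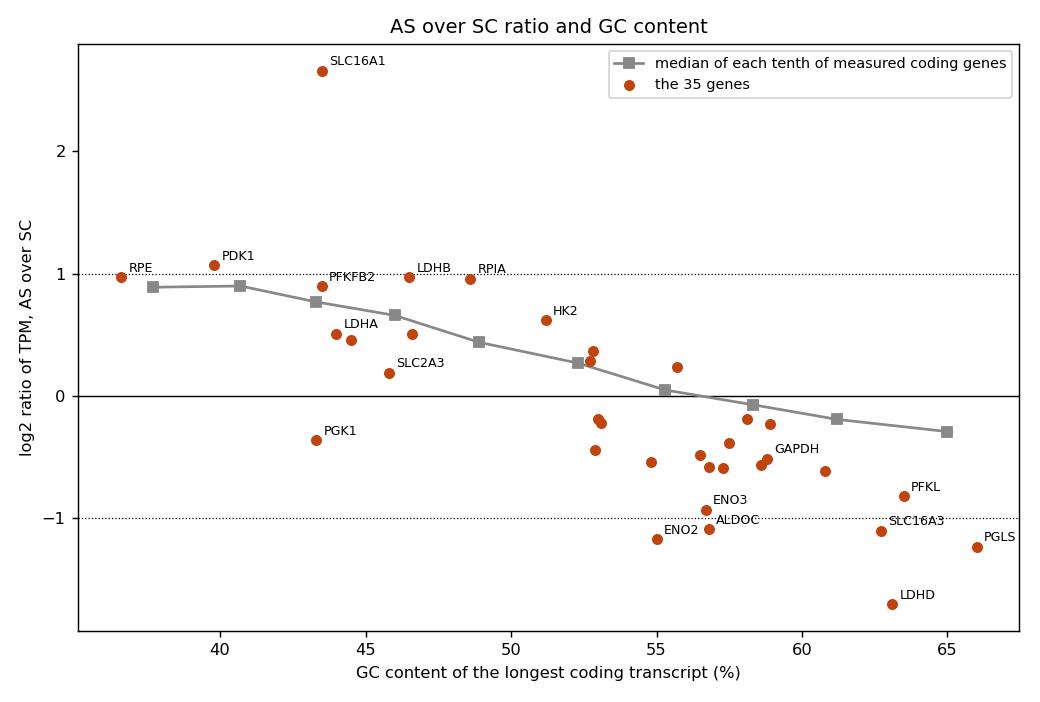
log2 ratio of TPM, AS over SC, against the GC content of the longest coding transcript in percent, for the 35 genes (circles) and as the median of each of 10 bins of the measured coding genes (squares joined by a line). Most of the 35 circles lie under the line, PGK1, ENO2, ALDOC and LDHD by more than 1, and SLC16A1 lies 1.89 above it.

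Promoters are shown for ALDOC, ENO2 and SLC16A3, which were lower in AS, and LDHA, which was higher. All 4 are described as HIF targets, but they are not the only such genes among the 35, PDK1 being another. The 4 were chosen after their values were seen, so their directions do not represent the HIF targets. The HIF core motif has the letters ACGTG or GCGTG. Both were searched on both strands in RefSeq promoters of GRCh38.p14, from 250 bases before the gene's start to 50 after it, which held 31 of the 35 genes. ACGTG also lies within the palindrome CACGTG, the E-box of MYC and other factors, where it matches on both strands. The 250 bases before the start of these 4 genes are shown with all matches in capitals.
ALDOC, chr17:28576896-28577145, minus strand: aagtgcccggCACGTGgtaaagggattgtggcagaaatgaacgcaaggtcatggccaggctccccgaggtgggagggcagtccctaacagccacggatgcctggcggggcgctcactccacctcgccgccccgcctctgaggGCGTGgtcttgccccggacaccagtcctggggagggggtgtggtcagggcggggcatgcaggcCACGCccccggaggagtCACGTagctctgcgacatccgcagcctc
ENO2, chr12:6914330-6914579, plus strand: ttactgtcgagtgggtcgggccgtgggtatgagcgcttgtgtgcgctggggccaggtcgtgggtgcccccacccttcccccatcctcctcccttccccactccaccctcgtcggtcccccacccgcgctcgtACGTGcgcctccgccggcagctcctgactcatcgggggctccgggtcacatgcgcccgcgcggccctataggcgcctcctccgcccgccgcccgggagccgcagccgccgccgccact
SLC16A3, chr17:82228185-82228434, plus strand: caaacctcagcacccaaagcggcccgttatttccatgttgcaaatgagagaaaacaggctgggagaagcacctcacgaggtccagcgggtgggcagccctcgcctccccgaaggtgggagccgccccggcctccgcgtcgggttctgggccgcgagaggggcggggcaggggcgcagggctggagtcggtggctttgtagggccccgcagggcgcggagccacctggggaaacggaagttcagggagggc
LDHA, chr11:18394313-18394562, plus strand: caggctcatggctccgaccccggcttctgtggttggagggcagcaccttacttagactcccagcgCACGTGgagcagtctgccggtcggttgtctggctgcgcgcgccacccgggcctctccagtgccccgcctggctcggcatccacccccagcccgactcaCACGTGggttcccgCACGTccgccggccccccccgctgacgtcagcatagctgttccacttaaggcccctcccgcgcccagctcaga
ALDOC had 4 separate matching stretches before its start, ENO2 had 1, LDHA had 3, and SLC16A3 had none in this window. A match of either motif was found in 64.5% of the 31 promoters, in 64.0% of 8049 promoters of measured coding genes and in 48.4% of all 35116 promoters. ACGTG alone was in 32.3% of the 31, in 27.3% of those of measured coding genes and in 21.4% of all. Of the 20 promoters of genes lower in AS 13 held either motif, and of the 11 of genes higher in AS 7 did. Whether the motifs bear on the directions was not tested.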

How the data were processed

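Total RNA was sequenced as 1 library per treatment, made with a directional kit per the labels' protocols. The authors deposited, per the file headers, 1 table per library with coverage (a signal of mean depth), FPKM and TPM for annotated genes and for assembled loci. The sources used here name no aligner and no quantifier. Per the submitters' processing notes the builds were GRCh38 and hg38, yet only 1 of the 35 genes had the coordinates of GENCODE 29 on GRCh38, and the printed gene coordinates are those of the tables, on GRCh37. Read counts are unknown, so no counting interval was computed.

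Ratios were log2((AS + 1)/(SC + 1)) of TPM, with rows of 1 symbol summed and measured genes at a mean of at least 1 TPM. Coverage, with 0.1 added, was divided by the coverage per FPKM and multiplied by the TPM per FPKM of its library, which added 0.14 to its log2 ratios. Among the 35 genes the coverage per FPKM ran from 0.216 to 3.54 in AS and from 0.219 to 3.62 in SC. Coverage was therefore not compared between genes, and the PFKFB sums of coverage are given only with this limit. GC content and 3' UTRs came from coding transcripts of GENCODE 29, by gene identifier. Named were all 35 genes and, of the other pathway genes, those past 2-fold and the 6 of highest mean TPM. DLAT, HKDC1, PDHX, PDK2 and PDK3 were chosen after their values were seen. The seed-match sequences of 1 gene are not reported here. The genes and lists were chosen with earlier results of these data known. The calculations were checked on simulated data. Alternatives were pseudocounts of 0.1 and 5, no filter or 5 TPM, centring, trimmed mean scaling, FPKM, coverage, assembled loci and the highest row of each symbol. Python 3.11.15, pandas 2.3.3 and numpy 2.4.6 were used.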

Additional observations from a re-analysis of the deposited data

How the results depend on the processing

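The count of 5 genes at least 2-fold lower in AS stayed at 5 in every alternative except centring on the median of all measured genes and trimmed mean scaling, which both gave 7 (5.09% and 5.25% of all measured genes, against 2.17%). The count of 2 genes at least 2-fold higher was 4 with a pseudocount of 0.1 (23.0% of all genes tested under that setting), 3 in coverage (20.2%), and 1 with a pseudocount of 5 (5.32%), a minimum of 5 TPM (14.1%), centring (9.17%), trimmed mean scaling (8.98%), FPKM (9.37%) or assembled loci (16.7%). The median log2 ratio of the 35 genes, -0.23, was -0.37 with a minimum of 5 TPM (32 genes), -0.51 after centring, -0.52 after trimmed mean scaling, -0.34 in FPKM and -0.37 in assembled loci. Minus the median of all genes tested it was -0.41 to -0.62 with a minimum level, and -0.23 with no filter. The summed monocarboxylate transporters passed 2-fold after centring (-1.05, against -0.77). PDK1 was under 2-fold in 6 alternatives, and no gene past 2-fold turned its sign in any alternative. The causes were not tested. No paired analysis was possible because there was 1 library per treatment. With no replicates and unknown read counts, values near or under 1 TPM (HK2, PFKFB2, PDK1, SLC16A1, HIF1A, PDP1 and PDK4 in SC) have an unknown error.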
